A study of Homo sapiens with 6 samples.

Results

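The genes described here are 10 genes of serine synthesis, folate-dependent one-carbon metabolism and the ATF4 stress response, taken by name from a list and read on each of 6 arrays. They are PHGDH, PSAT1, PSPH, SHMT1, SHMT2, MTHFD2, ASNS, ATF4, CHAC1 and DDIT3, which are 10 of the 18417 genes that the platform annotation ties to a probe with exactly 1 gene symbol. Where a gene had more than 1 such probe, the brightest was used. The cells were H441, an established human lung adenocarcinoma line. One group was transfected with a scrambled control siRNA and the other with siRNA against ETS2, both from Dharmacon and delivered with Lipofectamine RNAiMAX, and total RNA was taken 48 h later from 3 separate transfections per group. Both groups therefore carry the transfection reagent and an siRNA, and the comparison rests on 1 cell line, 1 targeting reagent and 1 control reagent. It asks which transcripts differ when ETS2, a transcription factor of the ETS family, is lowered.

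Serine is built from a glycolytic intermediate in a short chain of reactions, and its carbon can then be passed to folate to supply nucleotide synthesis and methylation. ATF4 is a transcription factor whose translation increases when the initiation factor eIF2 is phosphorylated under amino acid shortage, endoplasmic reticulum stress or other stress, and it activates genes of amino acid synthesis, amino acid transport and stress signalling, the serine pathway among them. Lung adenocarcinoma lines are known to differ widely in how much of this pathway they express.

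Many ATF4 target promoters carry a composite site for ATF4 and C/EBP factors, and ETS factors bind sites built on a GGAA core. RefSeq promoter windows on GRCh38.p14, from 250 bases before to 50 bases after a start site, were held for 8 of the 10 genes in 11 windows, and PSPH and SHMT2 had none. The letters TGATGNAA, searched on both strands as the composite core, were found in the windows of 2 genes, ASNS and CHAC1, against 1270 of 35116 windows overall (3.62%). The letters CCGGAAGT, searched on both strands as an ETS site, were found for 1 gene, DDIT3, against 1453 of 35116 windows (4.14%). A gene was counted if any of its windows matched, whereas the shares are per window, so the units differ. The matches did not overlap each other. The stretches around them are printed because they show where the listed stress genes carry those letters, with the matched bases in capitals. ASNS lies at chr7:97872458-97872487 on the minus strand, CHAC1 at chr15:40953251-40953280 on the plus strand and DDIT3 at chr12:57520695-57520724 on the minus strand.
ASNS: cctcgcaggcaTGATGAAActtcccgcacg
CHAC1: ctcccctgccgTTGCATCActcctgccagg
DDIT3: gacccaaagccACTTCCGGgtccgacacta

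PSAT1, a gene that fell after ETS2 siRNA, had neither run of letters in its window. The 250 bases before its start site, at chr9:78296875-78297124 on the plus strand, are printed because PSAT1 showed the clearest difference of the 10 genes. No base is capitalised in it, because only the longer runs of letters above were searched. The bare core ggaa does occur in this stretch and was not counted.
PSAT1: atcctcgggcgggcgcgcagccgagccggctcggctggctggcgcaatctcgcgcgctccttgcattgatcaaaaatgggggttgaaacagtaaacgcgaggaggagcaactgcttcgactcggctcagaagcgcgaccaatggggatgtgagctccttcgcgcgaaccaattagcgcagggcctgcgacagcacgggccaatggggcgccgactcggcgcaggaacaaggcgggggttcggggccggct

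The values are RMA expression levels on the log2 scale, so a difference of 1 is a doubling. ETS2 itself checks the labels: it stood at 9.79, 9.91 and 9.79 in control cells and 8.87, 8.70 and 8.78 after ETS2 siRNA, a difference of -1.05, or 48.4% of control (limma adjusted p = 0.000254). All 8 lung epithelial markers listed, among them NKX2-1, EPCAM and CDH1, lay above the background floor of 6.67, the level that 95% of olfactory receptor genes stay under. SFTPB, a surfactant protein gene and 1 of those 8, stood at -0.36 after ETS2 siRNA (limma adjusted p = 0.0077). The mean level over each list of other cell types ranged from 6.38 to 6.40 in control and 6.36 to 6.41 in ETS2 siRNA arrays for 11 leukocyte markers, from 6.56 to 6.67 and 6.61 to 6.66 for 9 fibroblast markers, and from 6.88 to 6.93 and 6.84 to 6.92 for 7 endothelial markers. In those lists 5 of 11, 5 of 9 and 2 of 7 genes lay above the floor. The brightest gene of each list stood well above it in control cells, CD68 at 11.29, LUM at 9.03 and KDR at 9.80. The defining leukocyte marker PTPRC stood at 4.74. In each of these 3 lists limma called 0 genes. KDR, TEK, FAP, CD68 and ITGAM had an unadjusted p under 0.05, as did NKX2-1 and KRT19 of the epithelial list. Over all genes that share was 18.5%. The part of these cell types in the results was not tested.

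After ETS2 siRNA, 2 of the 10 genes changed, and both fell: PSAT1, the aminotransferase of serine synthesis, and SHMT2, the mitochondrial enzyme that splits serine into glycine and a folate-bound carbon. The other 8 did not pass the test, which was limma's moderated test over all genes with Benjamini-Hochberg adjustment at 0.05. Across all 18417 genes 4.91% were called, 2.63% lower and 2.28% higher. With only the 13043 genes above the background floor tested, that share was 10.7%, and 2 of the 10 genes were again called. The 10 genes had a median difference of -0.01 and the 18417 genes a median of 0.00, with 5 of the 10 positive and 5 negative. The genes were picked by name, with earlier results of these data known, so the count of 2 in 10 is a description. All 10 lay above the background floor in both groups, and the test over all genes used no filter on dim values.

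**Figure D1:**
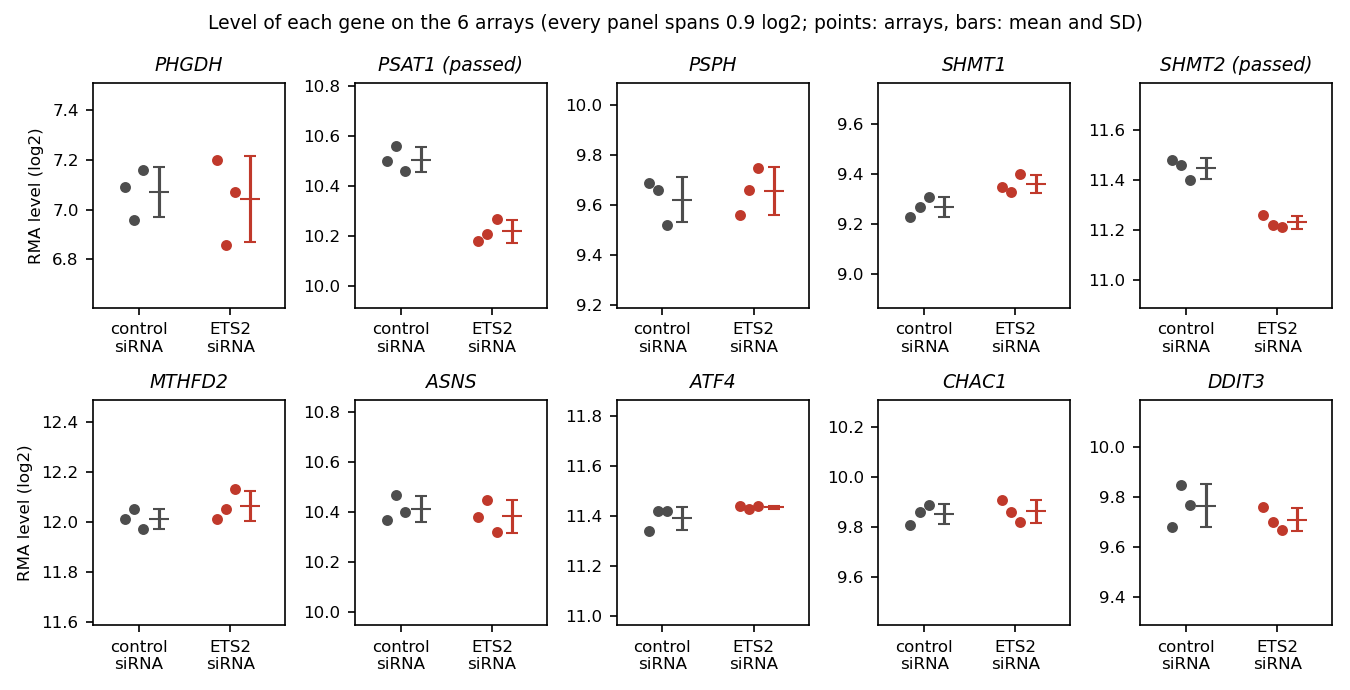
RMA level (log2) of each of the 10 genes on the 3 control siRNA and 3 ETS2 siRNA arrays; points are arrays, bars are the group mean and SD, and every panel spans the same log2 range. The groups are well apart for PSAT1 and SHMT2, close but separate for SHMT1 and ATF4, and overlapping for the other 6.

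PHGDH oxidises 3-phosphoglycerate and opens the serine pathway. It lay closest to the background floor of the 10 and stood at 7.09, 6.96 and 7.16 in control cells and 7.20, 6.86 and 7.07 after ETS2 siRNA. The groups overlapped throughout, with an SD of 0.10 in control and 0.17 in ETS2 siRNA arrays. The difference was -0.03, with a 95% interval from -0.23 to 0.18, so PHGDH was the least precisely measured of the 10. A further probe carried the symbols of both MZT2B and PHGDH, and its signal was not used for PHGDH.

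PSAT1 encodes the aminotransferase of the middle step, which takes nitrogen from glutamate. Its levels were 10.50, 10.56 and 10.46 in control cells and 10.18, 10.21 and 10.27 after ETS2 siRNA. Every ETS2 siRNA array lay below every control array. PSAT1 fell by 0.29 (log2), which is 82.0% of control (SE 0.0445, 95% interval 76.4% to 88.0%, limma adjusted p = 0.0120). The call was lost without ETS2 siRNA replicate 1 (-0.27, limma adjusted p = 0.0513) and without ETS2 siRNA replicate 2 (-0.28, limma adjusted p = 0.0595).

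PSPH removes the phosphate in the last step. Its brighter probe read 9.69, 9.66 and 9.52 in control cells and 9.56, 9.66 and 9.75 after ETS2 siRNA. The arrays of the groups were interleaved, and the difference of 0.03 had a 95% interval from -0.11 to 0.18. Its other probe read a difference of 0.10, with an interval from -0.09 to 0.28. The fall of PSAT1 was thus not accompanied by a called change in the enzyme before it or the enzyme after it.

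The serine hydroxymethyltransferases pass a carbon from serine to tetrahydrofolate, SHMT1 in the cytosol and SHMT2 in mitochondria. SHMT2 stood at 11.48, 11.46 and 11.40 in control cells and 11.26, 11.22 and 11.21 after ETS2 siRNA. The groups did not overlap, and SHMT2 fell by 0.22, to 86.1% of control (SE 0.0402, 95% interval 80.7% to 91.8%, limma adjusted p = 0.0224). This call rested on all 6 arrays: without any single one of them the difference lay between -0.24 and -0.20 and the limma adjusted p between 0.0503 and 0.105. In order of control replicates 1, 2 and 3 left out the adjusted p from limma was 0.0763, 0.0503 and 0.0506, and for ETS2 siRNA replicates 1, 2 and 3 it was 0.0556, 0.0976 and 0.105. Leaving out an array lowered calls over all genes too, from 904 to between 213 and 735, so such losses are not particular to SHMT2.

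SHMT1 moved the other way in its values without passing the test. It stood at 9.23, 9.27 and 9.31 in control cells and 9.35, 9.33 and 9.40 after ETS2 siRNA. The lowest ETS2 siRNA array lay 0.02 above the highest control array, and the difference of 0.09 had a 95% interval from -0.0047 to 0.18 (limma adjusted p = 0.299). Groups without overlap were found for 4 of the 10 genes, PSAT1 and SHMT2 lower and SHMT1 and ATF4 higher, against 23.1% of all genes, 11.5% lower and 11.6% higher.

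MTHFD2, the mitochondrial dehydrogenase that acts on the folate carbon after SHMT2, read 12.01, 12.05 and 11.97 in control cells and 12.01, 12.05 and 12.13 after ETS2 siRNA. The same pair of values occurred in both groups, and the difference of 0.05 had a 95% interval from -0.05 to 0.16. The dimmer probe read 0.08, with an interval from -0.02 to 0.17. A fall of the size seen for SHMT2 lay outside both intervals.

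ATF4 read 11.34, 11.42 and 11.42 in control cells and 11.44, 11.43 and 11.44 after ETS2 siRNA. The groups were separated by 0.01 only, and the difference was 0.04, with a 95% interval from -0.05 to 0.13 (limma adjusted p = 0.648). Its dimmer probe also had no overlap and read 0.10, from 10.39, 10.50 and 10.47 in control cells to 10.56, 10.54 and 10.55, with an interval from -0.01 to 0.20. These are transcript levels, and since ATF4 is controlled in large part at translation they do not measure the protein.

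ASNS, CHAC1 and DDIT3, well-known ATF4 targets, differed by less than the SD of their control arrays. ASNS, which makes asparagine from aspartate and glutamine, read 10.37, 10.47 and 10.40 in control cells and 10.38, 10.45 and 10.32 after ETS2 siRNA, a difference of -0.03 (95% interval -0.14 to 0.08). CHAC1, a glutathione-degrading enzyme, read 9.81, 9.86 and 9.89 in control cells and 9.91, 9.86 and 9.82 after ETS2 siRNA, a difference of 0.01 (95% interval -0.09 to 0.11). Both groups of CHAC1 cover nearly the same range.

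DDIT3 encodes CHOP, a C/EBP family factor induced by ATF4. It read 9.68, 9.85 and 9.77 in control cells and 9.76, 9.70 and 9.67 after ETS2 siRNA, a difference of -0.06 (95% interval -0.18 to 0.06). The groups overlapped. Of ATF4, ASNS, CHAC1 and DDIT3, 0 were called by limma and 0 had an unadjusted p under 0.05, against 18.5% of all genes. The promoter stretches with the composite letters belong to ASNS and CHAC1, which stood at 97.9% and 100.7% of control.

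**Figure D2:**
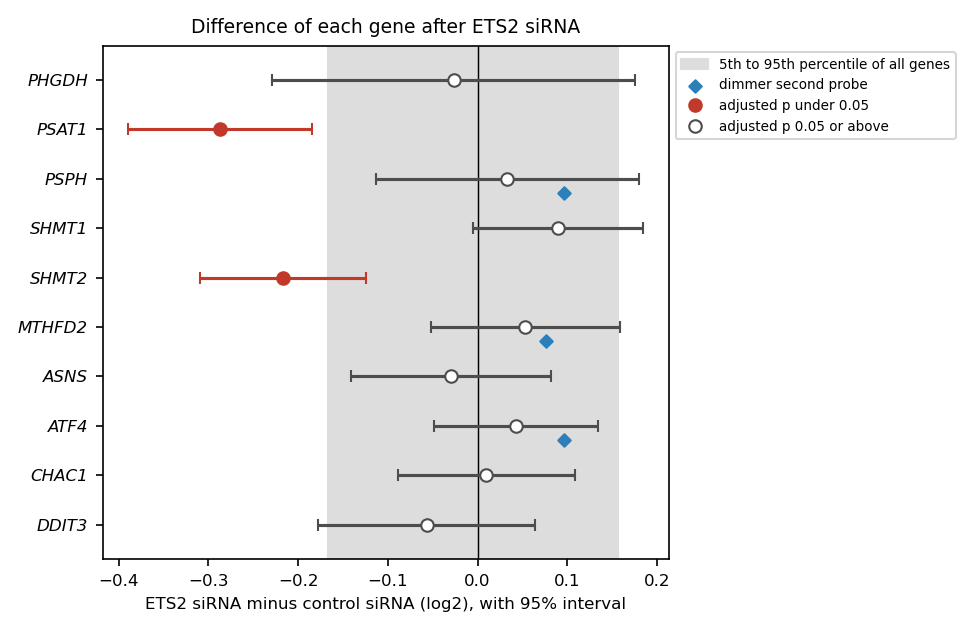
Difference of each gene (log2, ETS2 siRNA minus control), with its 95% interval; filled points have an adjusted p under 0.05, diamonds are the dimmer second probe of PSPH, MTHFD2 and ATF4, and the grey band runs from the 5th to the 95th percentile of all genes (-0.17 to 0.16). PSAT1 at -0.29 and SHMT2 at -0.22 lie to the left of the band, and the other 8 points lie within it.

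Unequal response was tested on 5 pairs, with the log2 difference between the genes of a pair taken within each array. Each pair holds PSAT1 or SHMT2, the called genes, so these values partly restate their falls. The response of SHMT2 lay 0.31 below that of SHMT1 (95% interval of SHMT2 minus SHMT1 -0.43 to -0.19), and the groups did not overlap. MTHFD2 responded 0.27 above SHMT2 (interval 0.15 to 0.39), PSPH 0.32 above PSAT1 (interval 0.21 to 0.43) and ASNS 0.26 above PSAT1 (interval 0.13 to 0.38), again without overlap. Each of these 4 pairs had an exact permutation p of 0.1, two-sided, the smallest that 3 arrays against 3 can give, and 0.125 after adjustment over the 5 pairs. PSAT1 minus PHGDH was -0.26 (interval -0.50 to -0.02), its groups overlapped, and the exact permutation p was 0.2. Without ETS2 siRNA replicate 1 it was -0.16 and without ETS2 siRNA replicate 2 it was -0.35. No pair passed 0.05, and none could by that test in this design. The intervals come from limma with the array differences added to the gene table. Their variance is thereby drawn toward that of single genes, although each difference carries the noise of both genes, so the intervals may be too narrow.

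The other genes of the pathway were read from 7 lists with 146 genes, of which 134 were measured, and 8 of those changed (5.97%, against 4.91% of all genes), 6 higher and 2 lower. Their median difference was 0.01, against 0.00 over all genes. These lists too were drawn up with earlier results of these data known, so their counts are descriptions. Of the 134 genes 125 lay above the floor. With only genes above the floor tested, 14 pathway genes and 10.7% of all genes were called.

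**Figure D3:**
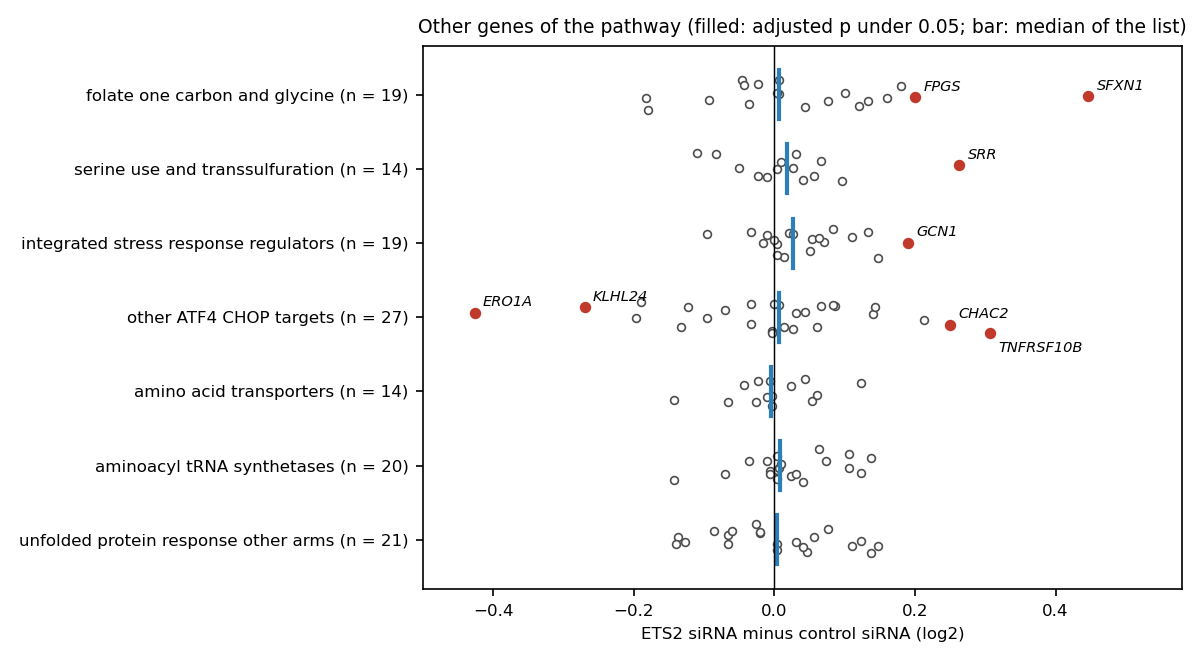
Difference (log2, ETS2 siRNA minus control siRNA) of each measured gene in 7 other lists of the pathway; filled points passed the test, open points did not, and the bars mark each list's median. SFXN1 at 0.45 and ERO1A at -0.43 stand farthest out, and the medians of the 7 lists lie between -0.01 and 0.03.

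Of 19 measured genes of folate one-carbon metabolism and glycine cleavage, 2 rose and 0 fell, against 2.28% higher among all genes, and 7 had an unadjusted p under 0.05, against 18.5% of all genes. SFXN1, the carrier that brings serine into mitochondria, read 11.40, 11.43 and 11.42 in control cells and 11.83, 11.85 and 11.91 after ETS2 siRNA. All ETS2 siRNA arrays lay above all control arrays by 0.40 or more, and SFXN1 rose by 0.45 (SE 0.0393, 95% interval 0.36 to 0.54, limma adjusted p = 0.00134). It stayed called without any single array, at an adjusted p of at most 0.0126 by limma. The carrier and the enzyme it supplies thus had opposite signs, SFXN1 higher and SHMT2 lower. FPGS, which adds glutamates to folates and keeps them in the cell, rose by 0.20, from 9.35 ± 0.05 to 9.55 ± 0.04 (SD, n = 3; limma adjusted p = 0.0402). Of the 6 fits that leave out an array, FPGS was called only without control replicate 2 (0.23, limma adjusted p = 0.0324), and the others gave up to 0.155.

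Of 14 measured genes of serine use and transsulfuration, 1 rose and 0 fell (7.14% called, against 4.91% of all genes). It was SRR, serine racemase, which makes D-serine, and it rose by 0.26, from 8.94 ± 0.03 to 9.20 ± 0.09 (SD, n = 3; limma adjusted p = 0.0259). SRR stayed called only without control replicate 2 (0.28, limma adjusted p = 0.0440) or ETS2 siRNA replicate 1 (0.30, limma adjusted p = 0.0384) and otherwise reached 0.0941. Genes of the other uses of serine, such as the SPTLC and PTDSS enzymes of lipid synthesis, were not called.

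Of 19 regulators of eIF2 signalling, 1 rose and 0 fell (5.26% called, near the 4.91% of all genes). GCN1, which helps the amino acid sensor kinase GCN2 to act, rose by 0.19, from 11.14 ± 0.05 to 11.33 ± 0.03 (SD, n = 3; limma adjusted p = 0.0402), and was called only without control replicate 2 (0.21, limma adjusted p = 0.0408) among the fits that leave out an array, the others reaching 0.158. The eIF2 kinases, the eIF2B subunits and the phosphatase subunits PPP1R15A and PPP1R15B were not called.

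Of 27 measured genes in a list of further ATF4 and CHOP targets, 2 rose and 2 fell. That is 14.8% of the list against 4.91% of all genes, and 10.7% of all genes when only those above the floor were tested. The list was drawn up with earlier results of these data known, and its count includes CHAC2, so the share is a description. ERO1A, an oxidase of the endoplasmic reticulum, read 12.71, 12.72 and 12.68 in control cells and 12.24, 12.33 and 12.26 after ETS2 siRNA. It fell by 0.43 (SE 0.0407, limma adjusted p = 0.00182) and stayed called without any single array (adjusted p up to 0.0177 by limma). KLHL24, an adaptor of a ubiquitin ligase, fell by 0.27, from 8.85 ± 0.07 to 8.58 ± 0.10 (SD, n = 3; limma adjusted p = 0.0440). Leaving out arrays, KLHL24 was called only without ETS2 siRNA replicate 2 (-0.32, limma adjusted p = 0.0487), and the others reached 0.153.

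TNFRSF10B, the TRAIL receptor that CHOP can induce, rose by 0.31, from 10.69 ± 0.08 to 10.99 ± 0.01 (SD, n = 3; limma adjusted p = 0.0122). Its call was lost without control replicate 3, ETS2 siRNA replicate 2 or ETS2 siRNA replicate 3 (limma adjusted p = 0.0515, 0.0595 and 0.0651). CHAC2, a relative of CHAC1, rose by 0.25, from 9.15 ± 0.02 to 9.40 ± 0.03 (SD, n = 3; limma adjusted p = 0.0107). It was lost without ETS2 siRNA replicate 2 or 3 (limma adjusted p = 0.0572 and 0.0617). CHAC2 and CHAC1 share an enzymatic activity, and CHAC1 stood at 100.7% of control. Whether CHAC2 is itself a target of ATF4 or CHOP was not tested. Signs were mixed in this list, with 14 genes positive and 13 negative.

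In the remaining 3 lists limma called 0 genes, and the counts at an unadjusted p under 0.05 stand against 18.5% of all genes. Among 14 amino acid transporters, 2 had an unadjusted p under 0.05: the glutamine transporter SLC38A1 at 0.12 (limma adjusted p = 0.116) and SLC36A4 at -0.14 (limma adjusted p = 0.117). Among 20 genes of aminoacyl-tRNA synthetases and tRNA export, 5 had an unadjusted p under 0.05, the smallest for HARS1 at 0.14 and the tRNA exporter XPOT at -0.14 (limma adjusted p = 0.0982 and 0.110). Among 21 genes of the other arms of the unfolded protein response, 6 had an unadjusted p under 0.05, the smallest for the chaperone HSP90B1 at -0.14 and SDF2L1 at 0.15 (limma adjusted p = 0.105 and 0.107).

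**Figure D4:**
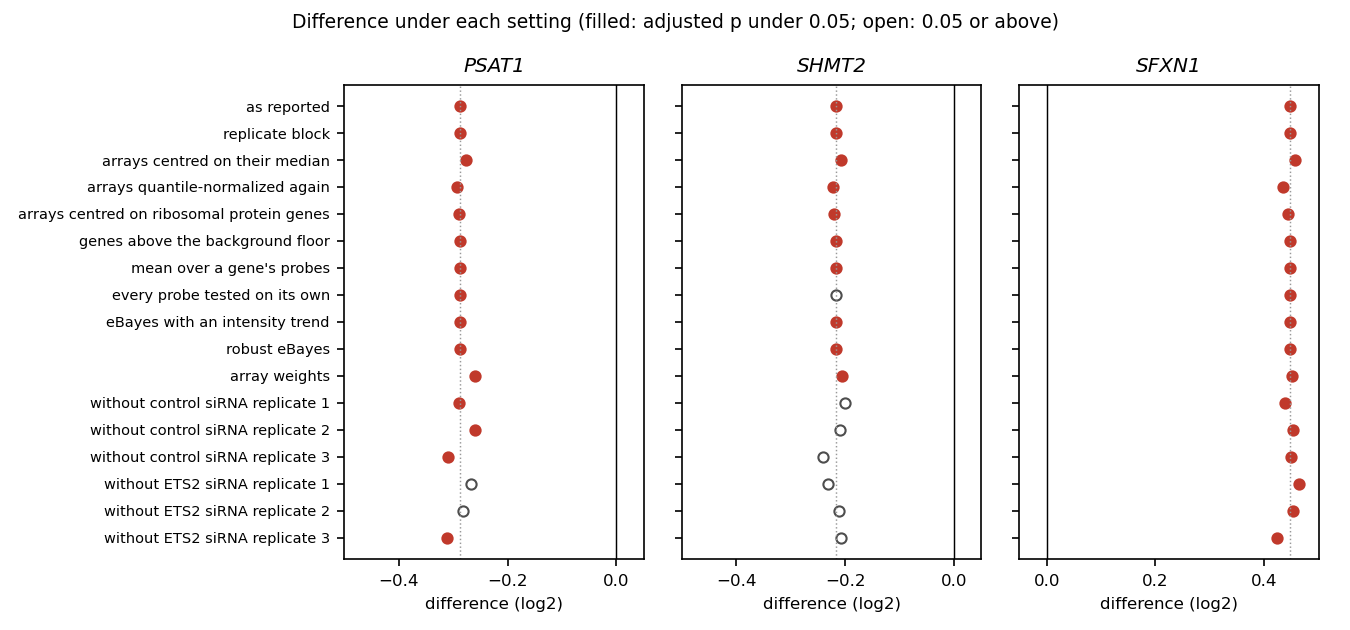
Difference (log2, ETS2 siRNA minus control siRNA) of PSAT1, SHMT2 and SFXN1 as reported and under 16 other settings; filled points have an adjusted p under 0.05 and open points do not. SFXN1 is filled in all settings, PSAT1 is open in 2 and SHMT2 in 7, while the differences themselves stay between -0.31 and -0.26 for PSAT1, -0.24 and -0.20 for SHMT2 and 0.42 and 0.46 for SFXN1.

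For PSAT1 and SHMT2, the 3 genes with the most similar profile over the 6 arrays were found by the root mean square distance between profiles, each centred on its own mean, among 12937 other genes above the floor. For PSAT1 these were SNORD78 at a distance of 0.0195, CXCL2 at 0.0224 and SHTN1 at 0.0241, with log2 differences of -0.30, -0.29 and -0.26. For SHMT2 they were ASF1B at 0.0189, SNORA51 at 0.0195 and CRELD1 at 0.0208, with differences of -0.20, -0.19 and -0.22. PSAT1 and SHMT2 were not among each other's nearest 3. The distance includes the difference between the groups, so the nearest genes have similar differences by construction.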

How the data were processed

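Per the submitters' processing notes, the deposited values are RMA levels; the authors' log2 scale was read from the values, which run from 3.21 to 14.51 with array medians over genes from 8.07 to 8.10. For RMA settings and version, and the genome build, no value is given in the sources used here. RMA removes shifts shared by all genes and compresses folds of dim ones. Of 33297 probes, 19460 had 1 symbol, 1754 several and 12083 none here. Names came from GEO's platform annotation, checked by gene identifier against RefSeq (19429 matched). RefSeq names 7 pseudogenes of MTHFD2, 5 of ASNS, 4 each of PSAT1 and ATF4 and 1 each of PSPH and SHMT1, and a probe could read such copies.

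Differences are ETS2 siRNA minus control, fitted over all 6 arrays and 18417 genes with limma 3.58.1 in R 4.3.3 (lmFit, eBayes without trend, two-sided), Benjamini-Hochberg adjusted over all genes. Differences and intervals of the dimmer second probes come from the same model fitted over all 33297 probes, so their intervals are not from the gene fit. The procedure was tested on simulated data. Replicates are separate transfections of 1 line, and precision is limited by their number. The floor is the 95th percentile of 341 olfactory receptor genes. Members, lists and tests were chosen with earlier results of these data known. Named were all 10 genes, ETS2, and per list the called genes (up to 6) or, with none called, the 2 with the smallest p, plus the 3 nearest profiles of PSAT1 and SHMT2. Markers and the genes in the last part were named apart from that rule. Of 146 list genes, 12 had no probe with 1 symbol and were not analysed here. Alternatives were a replicate block, 3 rescalings, a floor filter, other probe choices, 2 variance models, array weights and each array left out.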

Additional observations from a re-analysis of the deposited data

How the results depend on the processing

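The fall of ETS2 kept its call under all 16 alternatives. For the 10 genes, limma called 2 under each alternative except 1 when every probe was tested on its own, where SHMT2 missed the threshold (adjusted p = 0.0703), and between 0 and 1 with an array left out; in the fits with 0 called, 2 had an unadjusted p under 0.05. PSAT1 and SHMT2 kept their sign throughout. The count of 8 other pathway genes became 14 (9 higher, 5 lower) with only genes above the floor tested and 4 with every probe tested. It was 25 (17 higher, 8 lower) with an intensity trend in the variance, and 2 to 8 with an array left out. Over all genes, 4.91% were called as reported and 10.7% above the floor. The share was 1.75% with every probe tested, 10.7% with the intensity trend and 1.16% to 3.99% with an array left out. In these settings the pathway count rose where the share over all genes rose, and was equal or lower where it fell. The changes were not in proportion: with the intensity trend the pathway count went from 8 to 25 and the calls over all genes from 904 to 1963. With fewer arrays the fit has fewer degrees of freedom. No pair difference changed sign or moved by more than the SD pooled over both groups. Array numbers are shared by the groups but nothing in the labels ties same-numbered transfections, and their deviations correlated at 0.177, 0.181 and 0.0352, the last below the 0.0659 with another number. With the replicate number as a block 604 genes were called instead of 904, 2 of the 10 genes (PSAT1 adjusted p = 0.0382, SHMT2 0.0454, limma) and 4 of the other pathway genes.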

Other observations

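Several further genes of the pathway came close to the threshold and were chosen after their values were seen. In folate metabolism, MTFMT, which formylates the initiator tRNA, stood at -0.18 (limma adjusted p = 0.0549), the mitochondrial folate carrier SLC25A32 at 0.16 (limma adjusted p = 0.0826) and the cytosolic enzyme MTHFD1 at 0.18 (limma adjusted p = 0.0917). Among stress genes, EIF2AK3, the eIF2 kinase PERK, stood at 0.15 (limma adjusted p = 0.0835), CEBPG, a partner of ATF4, at -0.20 (limma adjusted p = 0.0720), the stress gene NDRG1 at -0.19 (limma adjusted p = 0.0846) and SESN2, an ATF4 target that restrains mTORC1, at 0.21 (limma adjusted p = 0.102). None of these 7 passed the test.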
